A study of Mus musculus with 10 samples.

Results

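The genes described here are Myc and 39 genes of ribosome biogenesis, 40 of the 20611 genes listed for each mouse. They were chosen by symbol, with the Klk6+ against WT fold changes and calls of these same libraries known. That comparison is therefore given for them as a description, without p-values. Differences between the sexes, which the list did not use, were tested. Skin from 5 Klk6+ mice, 3 males and 2 females, was set against skin from 5 WT mice, also 3 males and 2 females, by poly(A)-selected RNA sequencing, with 1 library for each mouse. Klk6+ mice carried a Tetos-Klk6 transgene for mouse Klk6 with a C-terminal Myc/His tag together with the K5-tTA driver, a tetracycline transactivator under the bovine Keratin 5 promoter. Keratin 5 is made by basal keratinocytes and by some other stratified epithelia, and doxycycline keeps this Tet-off system silent. The WT animals were littermates that could be wild type or carry a single, silent transgene, and the labels do not say which. Both lines were backcrossed to C57BL/6. The treatment text, the same for all samples, says that Klk6+ mice were returned to doxycycline food at 10 to 11 weeks and that tissue was taken at 14 to 16 weeks of age. It does not mention doxycycline for the WT mice, and whether skin was taken on or off doxycycline is unclear from it. Libraries 1 to 3 of each genotype came from males and libraries 4 and 5 from females, and values below follow that order.

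Ribosomes are built in the nucleolus. RNA polymerase I transcribes the ribosomal DNA into a long precursor, which small nucleolar ribonucleoproteins (snoRNPs) modify and which many processing factors cut and fold into the small and large subunits before export. The transcription factor Myc, paired with Max, binds the E-box CACGTG and drives genes of this pathway in many growing cells. In skin, dividing basal keratinocytes make most use of it, and their output falls as the cells differentiate.

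Library totals ran from 26521019 to 39796511 counts in Klk6+ skin and from 32798416 to 41970272 in WT skin, and no pair of libraries of the same genotype agreed within sampling noise. Whatever the doxycycline status, Klk6 stood at 10290 to 14770 CPM (counts scaled to a common, TMM-adjusted library size) in Klk6+ libraries and at 12.7 to 26.48 CPM in WT libraries. Of 14861 genes that passed the filter on low counts, 10813 differed between genotypes in edgeR's quasi-likelihood test at a Benjamini-Hochberg adjusted p under 0.05. Skin was marked as such in every library by epidermal keratins, with Krt14, a basal keratin, at 10052 ± 1889 CPM in Klk6+ skin and 931 ± 363 CPM in WT skin (SD, n = 5 each). Cell types other than keratinocytes also moved with genotype. The counts of markers that follow stand against 37.7% of all tested genes called higher and 35.1% called lower. All 16 skeletal muscle markers fell, with sums of 4715 to 9615 CPM in Klk6+ skin and 61057 to 91725 CPM in WT skin. All 7 fibroblast markers fell, with sums of 4611 to 9402 CPM in Klk6+ skin and 12003 to 40937 CPM in WT skin. Macrophage markers fell in 7 of 7 cases, with sums of 293 to 1099 CPM in Klk6+ skin and 997 to 4405 CPM in WT skin. Adipocyte markers fell in 7 of 7 cases, endothelial markers in 5 of 6 and T cell markers in 4 of 5. Sebocyte markers rose in 5 of 6 cases, with sums of 4562 to 18190 CPM in Klk6+ skin and 2837 to 6630 CPM in WT skin. Hair shaft markers varied widely between mice, and 1 of 7 rose while 6 did not pass. Their sums were 183, 743, 3.13, 75.1 and 2.38 CPM in Klk6+ libraries and 2.84 to 53.6 CPM in WT libraries. Suprabasal keratinocyte markers rose in 3 of 6 cases and fell in 1, with sums of 8487 to 16168 CPM in Klk6+ skin and 4185 to 12155 CPM in WT skin. Of the 7 basal keratinocyte markers 3 rose and 2 fell, and their sums were 13212 to 19201 CPM in Klk6+ skin and 3566 to 9626 CPM in WT skin. Krt14 and Krt5 made up most of the sum in Klk6+ skin. Krt15 went the other way, at 218 ± 67.0 CPM in Klk6+ skin and 1916 ± 718 CPM in WT skin (SD, n = 5 each). Col17a1 also fell, Itga6 rose, and Trp63 and Itgb4 did not pass, so the sums do not stand for the list. All 6 tested neutrophil markers rose, with sums of 64.7 to 373 CPM in Klk6+ skin, highest in Klk6+ 3 and Klk6+ 5, and 6.06 to 21.9 CPM in WT skin. All 20 cell cycle genes rose, with sums of 1079 to 1280 CPM in Klk6+ skin and 195 to 335 CPM in WT skin. No marker of these lists was at 0 in every library. The part of these shifts in the levels of the 40 genes was not tested, and in whole skin fewer cells of a type and less RNA per cell cannot be told apart.

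All 40 genes passed the filter, with 160 counts as the lowest value in any library and 33323 as the highest. In Klk6+ skin all 40 were higher at adjusted p under 0.05, and none was lower, calls made for 37.7% and 35.1% of all tested genes. The members were listed with this contrast known, so nothing is read from that count. The median log2 fold change of the 40 was 1.36, against 0.04 over all tested genes. At least 2-fold higher were 30 of the 40, against a background of 15.7%. Every Klk6+ library lay above every WT library for 39 of the 40, against 30.1% of tested genes, and the exception was Myc. Every Klk6+ library lay below every WT library for 0 of the 40, against 27.0%. Fold changes spread from 0.55 ± 0.12 on the log2 scale for Polr1c to 2.07 ± 0.12 for Nop56 (SE), and Nop56 was the 1 gene at least 4-fold higher. The genes nearest the bottom of this range were Polr1c, Polr1a, Nop14, Rrp12, Pes1 and Gnl2, at 0.55, 0.57, 0.63, 0.71, 0.72 and 0.74. The heatmap of all libraries shows these differences gene by gene.

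**Figure D1:**
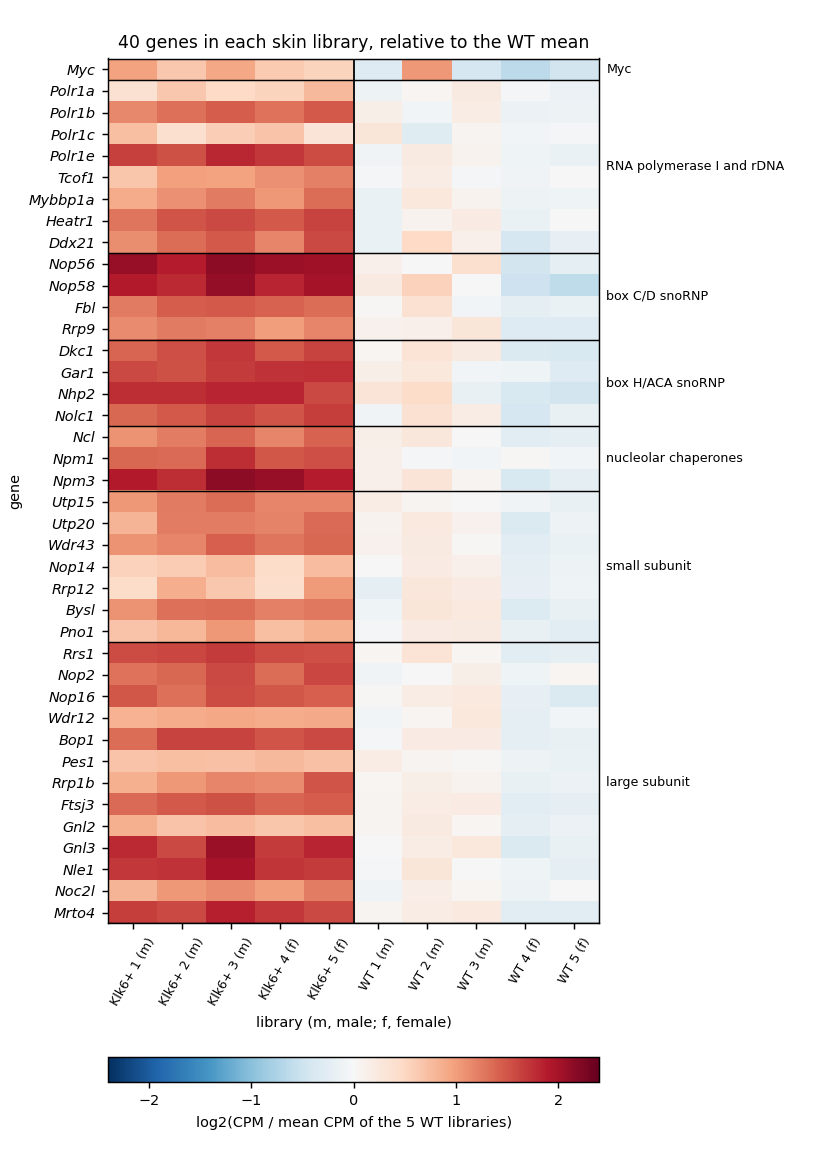
Each row is a gene and each column a library (m, male; f, female), with Klk6+ left of WT. Colour gives log2 of the CPM over the mean of the 5 WT libraries. Every Klk6+ cell lies above every WT cell in its row except in the row of Myc, where WT 2 stands at 100.1 CPM.

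Myc had the widest spread among WT mice relative to its mean, with a coefficient of variation of 59.3%. It had 94.7, 76.4, 92.6, 75.6 and 70.2 CPM in Klk6+ libraries, against 39.1, 100.1, 36.9, 31.7 and 35.7 CPM in WT libraries. The Klk6+ libraries lay close together, and 4 of the 5 WT libraries lay below all of them. WT 2, a male, was above every other library, so the groups overlapped. The fitted log2 fold change was 0.79 ± 0.27 (SE), with 32.2 ± 4.06 FPKM in Klk6+ skin and 18.8 ± 10.6 FPKM in WT skin (SD, n = 5 each; FPKM, read fragments scaled to gene length and library depth, as deposited). Myc was no longer called higher when WT 4, Klk6+ 4 or Klk6+ 5 was left out, when Klk6+ 3 and Klk6+ 5 were both left out, or in males alone. The transgene carries a Myc epitope tag, and whether any read from it was counted for Myc was not tested.

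The promoters of 32 of the 40 genes, 250 bases before to 50 after the start, were read from RefSeq on GRCm38.p6. CACGTG, which reads the same on both strands, was found in 7 of them (21.9%), against 11.0% of the 11251 tested genes with a promoter and 8.09% of all 27025. The 7 genes were Mybbp1a, Utp20, Wdr43, Pno1, Nop2, Pes1 and Nle1. In 6 of them the first base of the motif lay after the start, from base 3 in Pes1 to base 41 in Mybbp1a, and in Nop2 it lay at base -60. The promoters printed are those of the most abundant gene holding the motif in each functional group, to show where it sits. Capitals mark CACGTG, and each sequence runs 5′ to 3′ on the gene's strand.
Mybbp1a (chr11:72441077-72441376, plus strand): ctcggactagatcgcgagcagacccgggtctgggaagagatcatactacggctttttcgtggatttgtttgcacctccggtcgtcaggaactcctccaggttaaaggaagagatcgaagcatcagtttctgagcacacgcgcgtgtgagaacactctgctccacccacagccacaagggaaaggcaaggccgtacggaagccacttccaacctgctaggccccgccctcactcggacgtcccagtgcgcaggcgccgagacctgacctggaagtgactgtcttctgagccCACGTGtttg
Pno1 (chr11:17211540-17211839, minus strand): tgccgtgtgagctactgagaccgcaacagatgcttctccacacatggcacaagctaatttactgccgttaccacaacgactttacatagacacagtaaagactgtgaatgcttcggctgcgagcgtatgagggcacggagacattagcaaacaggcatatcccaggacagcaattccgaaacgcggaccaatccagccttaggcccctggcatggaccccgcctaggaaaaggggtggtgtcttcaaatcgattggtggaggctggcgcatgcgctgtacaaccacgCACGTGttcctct
Pes1 (chr11:3963725-3964024, plus strand): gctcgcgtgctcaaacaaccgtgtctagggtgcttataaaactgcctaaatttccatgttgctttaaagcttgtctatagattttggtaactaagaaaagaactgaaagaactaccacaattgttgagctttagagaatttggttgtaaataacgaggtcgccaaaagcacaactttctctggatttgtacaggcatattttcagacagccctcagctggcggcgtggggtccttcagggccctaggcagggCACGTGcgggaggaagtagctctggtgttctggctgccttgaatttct
The related letters CACGCG, or CGCGTG on the other strand, stood in 11 of the 32 (34.4%) and in 18.4% of the tested genes' promoters. GGCGGG, or CCCGCC on the other strand, the core that Sp-family factors bind, stood in 22 of the 32 (68.8%) and in 63.6%. TATAAA, or TTTATA on the other strand, stood in 2 of the 32, Dkc1 and Pes1 (6.25%), and in 10.2%. A match says only that the letters are there. Of the 7 genes that hold the E-box, Pes1 and Pno1 were at 0.72 ± 0.08 and 0.83 ± 0.10 on the log2 scale. Mybbp1a, Utp20, Wdr43 and Nop2 were at 1.13 ± 0.12, 1.18 ± 0.13, 1.29 ± 0.11 and 1.45 ± 0.09, and Nle1 was at 1.77 ± 0.11. Whether the motif goes with the size of the difference was not tested.

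Among genes that act on the ribosomal DNA and its transcription, the 8 log2 fold changes had a median of 1.24. Polr1e, a subunit of RNA polymerase I outside its catalytic core, differed most. It had 17.7, 16.3, 19.9, 18.4 and 16.8 CPM in Klk6+ libraries, against 5.35, 6.60, 5.98, 5.27 and 5.05 CPM in WT libraries, a log2 fold change of 1.66 ± 0.11 (SE). The lowest Klk6+ library, Klk6+ 2, stood far above the highest WT library, WT 2. Polr1c, a subunit shared by RNA polymerases I and III, differed least, with 38.2, 30.2, 34.9, 36.8 and 28.5 CPM in Klk6+ libraries and 28.0, 18.8, 24.2, 21.9 and 22.3 CPM in WT libraries. Its groups nearly touched, since Klk6+ 5 was 1.02 times WT 1. Polr1a and Polr1b encode the large catalytic subunits of the enzyme, and their fold changes were unequal, at 0.57 ± 0.10 and 1.34 ± 0.10 on the log2 scale. Polr1b averaged 40.7 ± 3.53 CPM in Klk6+ skin and 16.1 ± 1.68 CPM in WT skin, and Polr1a averaged 48.1 ± 5.32 CPM in Klk6+ skin and 32.4 ± 3.41 CPM in WT skin (SD, n = 5 each). Mybbp1a, a nucleolar Myb-binding protein, was the most abundant gene of this group per length. It had 177, 204, 227, 196 and 242 CPM in Klk6+ libraries, against 85.6, 114, 102, 87.4 and 89.1 CPM in WT libraries. The groups stood well apart, with WT 2 highest and WT 1 lowest among WT mice. Heatr1, needed for early steps on the precursor, and Ddx21, an RNA helicase, were at 1.50 ± 0.10 and 1.37 ± 0.16 on the log2 scale. Tcof1, which encodes treacle, a scaffold of ribosomal DNA transcription, was at 0.99 ± 0.10.

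Box C/D snoRNPs place methyl groups on ribosomal RNA, and their 4 genes had the highest median log2 fold change of any group, 1.69. Nop56, a core protein that holds the particle together, had 96.3, 84.1, 101, 94.6 and 92.7 CPM in Klk6+ libraries, against 24.8, 22.9, 29.4, 16.8 and 19.4 CPM in WT libraries. The groups were far apart, and the WT females, WT 4 and WT 5, were the lowest libraries. Nop58, its partner in the core, was at 1.98 ± 0.17 on the log2 scale. Fbl, fibrillarin, the methyltransferase itself, was the most abundant of the group per length, at 109.8 ± 6.30 FPKM in Klk6+ skin and 41.7 ± 6.19 FPKM in WT skin (SD, n = 5 each). Its libraries had 111, 127, 129.8, 124 and 118 CPM in Klk6+ skin, against 47.6, 59.7, 44.3, 39.8 and 41.6 CPM in WT skin, without overlap. Rrp9, which recognises the U3 snoRNA, differed least, with 29.7, 32.0, 31.5, 27.2 and 30.4 CPM in Klk6+ libraries, against 14.6, 14.8, 16.5, 10.9 and 10.9 CPM in WT libraries. Again both WT females lay below the 3 WT males.

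Many snoRNAs are made from the introns of other genes. In the GENCODE M21 annotation on GRCm38, 6 of the 40 genes (15.0%) had at least 1 snoRNA gene within their bounds on the same strand, against 1.48% of 14350 tested protein-coding genes. Nop56 held 5, Nop58 held 4, Ncl, Wdr43 and Gnl3 held 3 each, and Dkc1 held 1. For comparison, 3 of 120 other ribosome biogenesis genes with a match (2.50%) and 30 of 79 cytosolic ribosomal protein genes (38.0%) held a snoRNA gene. The snoRNAs themselves were not measured, since poly(A) selection takes mature mRNA. Those printed lie in 4 of the genes and hold both boxes that the Nop56, Nop58 and fibrillarin particle binds, with TGATGA, a form of box C, and the last CTGA, box D, in capitals.
Snord110 (in Nop56, chr2:130275506-130275573, plus strand): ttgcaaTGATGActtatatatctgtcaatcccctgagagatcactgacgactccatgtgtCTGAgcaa
Snord11 (in Nop58, chr1:59704790-59704873, plus strand): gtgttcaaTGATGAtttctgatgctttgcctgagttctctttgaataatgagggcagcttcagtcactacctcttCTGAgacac
Snord82 (in Ncl, chr1:86356261-86356330, minus strand): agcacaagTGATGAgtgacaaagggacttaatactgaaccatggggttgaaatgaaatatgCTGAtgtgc
Snord69 (in Gnl3, chr14:31014287-31014366, minus strand): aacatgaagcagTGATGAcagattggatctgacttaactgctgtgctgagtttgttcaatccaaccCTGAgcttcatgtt
Searched on the snoRNA's own strand, TGATGA and a CTGA were both found in 74 of 98 Snord genes in the annotation (75.5%).

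Box H/ACA snoRNPs turn uridines of ribosomal RNA into pseudouridine. Their 3 core proteins on the list and Nolc1 had a median log2 fold change of 1.62, in a narrow range from 1.55 to 1.79. Nhp2, a core RNA-binding protein, was the most abundant of the group per length and differed most, with 131, 131, 136, 135 and 114 CPM in Klk6+ libraries, against 47.5, 51.8, 33.7, 29.7 and 28.0 CPM in WT libraries. Klk6+ 5 was lower than the other Klk6+ libraries and still above the highest WT library, WT 2. Dkc1, dyskerin, the pseudouridine synthase, was at 1.57 ± 0.12, and Gar1, a core protein needed for its activity, at 1.66 ± 0.12. Nolc1, a nucleolar and Cajal body phosphoprotein that binds snoRNPs, had 101, 108, 119.6, 109.6 and 122 CPM in Klk6+ libraries, against 36.7, 49.7, 43.8, 29.1 and 34.2 CPM in WT libraries, without overlap.

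The nucleolar chaperones include the most abundant gene of the set per length. Npm1, nucleophosmin, which shuttles between nucleolus and cytoplasm, stood at 531 ± 64.0 FPKM in Klk6+ skin and 183 ± 12.7 FPKM in WT skin (SD, n = 5 each). It had 669, 657, 877, 721 and 748 CPM in Klk6+ libraries, against 278, 253, 246, 260.3 and 247 CPM in WT libraries. WT mice differed little from each other in Npm1, with a coefficient of variation of 5.17%, and Klk6+ 3 was the highest library. Npm3, a smaller relative of nucleophosmin, had 58.4, 53.5, 69.2, 67.1 and 57.5 CPM in Klk6+ libraries, against 17.1, 19.3, 16.3, 12.1 and 13.5 CPM in WT libraries, a log2 fold change of 1.98 ± 0.13. Ncl, nucleolin, which binds nascent precursor RNA, had the smallest fold change of the 3, with 581, 640.4, 723, 618 and 736 CPM in Klk6+ libraries and 303, 332, 277, 226 and 235 CPM in WT libraries. No library of either genotype crossed over in any of these 3 genes.

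**Figure D2:**
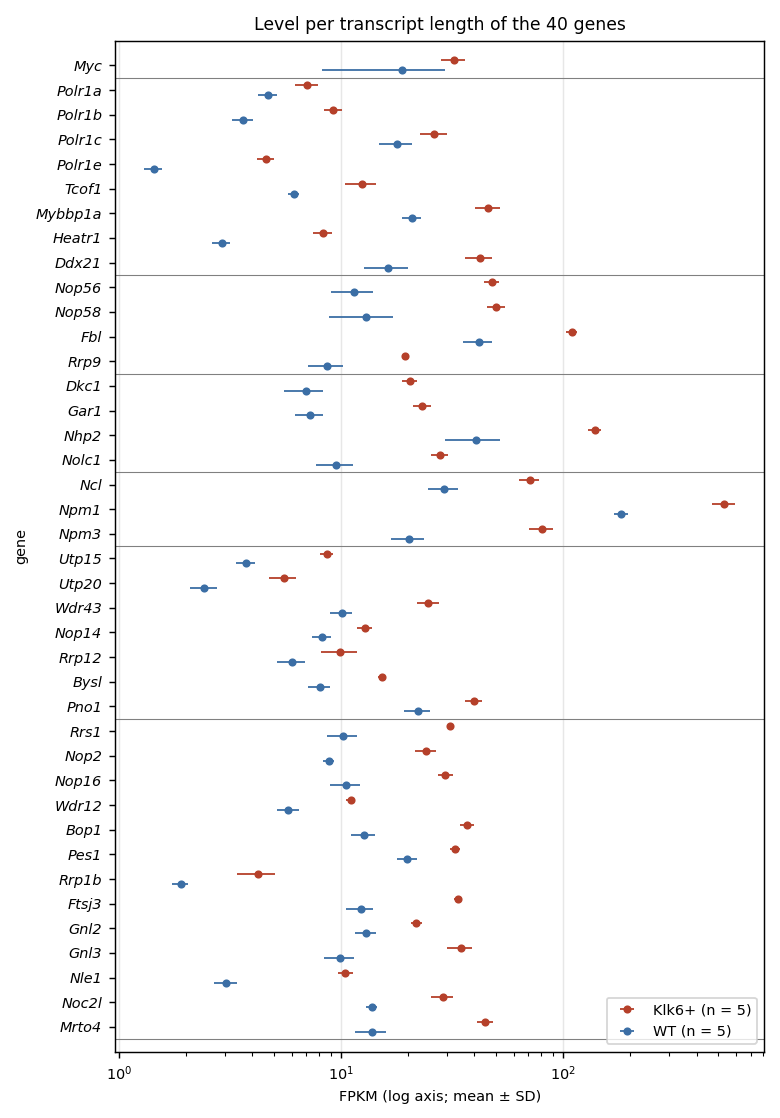
Mean FPKM with SD of 5 libraries per genotype on a log axis, Klk6+ above WT in each row, with lines between the functional groups. Npm1 lies far to the right of the other genes, at 531 FPKM in Klk6+ skin and 183 FPKM in WT skin, and Polr1e has the lowest WT mean, 1.44 FPKM.

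Levels per length covered a wide range within each genotype. In Klk6+ skin the order at the top was Npm1, Nhp2 at 139 ± 9.76 FPKM, Fbl at 109.8 ± 6.30 FPKM and Npm3 at 80.3 ± 9.88 FPKM (SD, n = 5). In WT skin Npm1 was followed by Fbl at 41.7 ± 6.19 FPKM and Nhp2 at 40.7 ± 11.2 FPKM, which were closer to each other than their SD. At the low end, Rrp1b, Polr1e and Utp20 had 4.25 ± 0.824, 4.60 ± 0.400 and 5.53 ± 0.757 FPKM in Klk6+ skin. The same genes had 1.90 ± 0.156, 1.44 ± 0.134 and 2.43 ± 0.331 FPKM in WT skin.

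Factors of the small subunit had a median log2 fold change of 1.18 over 7 genes. Pno1, an RNA-binding protein of late small subunit precursors, was the most abundant of them per length, with 56.6, 61.4, 72.5, 58.2 and 64.0 CPM in Klk6+ libraries, against 34.2, 40.5, 41.2, 31.0 and 29.6 CPM in WT libraries. Wdr43, a subunit of the U3-containing small subunit processome, differed most, with 81.1, 86.4, 104, 93.3 and 100.1 CPM in Klk6+ libraries, against 41.0, 44.5, 39.2, 32.3 and 34.5 CPM in WT libraries. In both genes the WT females were the lowest libraries. Nop14, also of the processome, differed least, with 35.3, 36.6, 40.3, 32.8 and 40.1 CPM in Klk6+ libraries, against 24.1, 27.4, 26.1, 20.5 and 22.2 CPM in WT libraries. Utp15 and Utp20, processome proteins as well, were at 1.20 ± 0.08 and 1.18 ± 0.13 on the log2 scale, and Rrp12, an export factor, at 0.71 ± 0.15. Bysl, bystin, needed for late steps on this subunit, was at 1.25 ± 0.11 from counts and at 0.94 on log2(FPKM + 0.1).

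Large subunit factors were the largest group, with 13 genes and a median log2 fold change of 1.45. Mrto4, which takes the place of the stalk protein P0 on precursors, was the most abundant per length in Klk6+ skin, at 44.7 FPKM, where Pes1 had 32.8 FPKM, and in WT skin Pes1 was, at 19.9 FPKM against 13.8 FPKM. Mrto4 had 51.5, 49.3, 59.4, 53.3 and 49.0 CPM in Klk6+ libraries, against 17.2, 18.5, 19.3, 13.5 and 13.5 CPM in WT libraries. Gnl3, nucleostemin, a nucleolar GTPase found at high levels in stem and dividing cells, differed most. It had 68.6, 59.5, 83.0, 63.3 and 70.6 CPM in Klk6+ libraries, against 19.9, 22.6, 23.6, 15.6 and 17.6 CPM in WT libraries, a log2 fold change of 1.81 ± 0.12. Both genes separated the genotypes fully, with Klk6+ 3 at the top and the WT females at the bottom. Pes1 differed least of the 13, with 101, 103, 102, 107 and 102 CPM in Klk6+ libraries, against 71.0, 65.8, 63.6, 57.4 and 56.0 CPM in WT libraries. Pes1 forms the PeBoW complex with Bop1 and Wdr12, and the 3 partners had unequal fold changes. Bop1 was at 1.55 ± 0.10, Wdr12 at 0.90 ± 0.09 and Pes1 at 0.72 ± 0.08 on the log2 scale. In FPKM the partners were closer in Klk6+ skin for Bop1 and Pes1, at 37.2 ± 2.62 and 32.8 ± 1.64, than in WT skin, at 12.7 ± 1.58 and 19.9 ± 2.04, so that their order turned round. Wdr12 was the lowest of the 3 in both genotypes, at 11.1 ± 0.490 FPKM in Klk6+ skin and 5.81 ± 0.669 FPKM in WT skin. Nle1, a large subunit assembly factor, and Rrs1, which brings in the 5S particle, were at 1.77 ± 0.11 and 1.61 ± 0.09. Nop2, an RNA methyltransferase, Ftsj3, another methyltransferase, and Nop16 were at 1.45 ± 0.09, 1.45 ± 0.09 and 1.48 ± 0.10. Rrp1b and Noc2l were at 1.15 ± 0.13 and 1.05 ± 0.10, and Gnl2, a nucleolar GTPase, was at 0.74 ± 0.08.

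Annotated exons of 20 of the 40 genes overlap another gene in GENCODE, among them Nop56 with Idh3b, Bysl with Ccnd3 and Gnl3 with Pbrm1. The library kit did not mark strand, so values of these 20 are uncertain to the extent of the shared stretch. Pseudogenes that bear the gene's own name exist for Npm3 and Mrto4, and reads of these genes may have been split. Pseudogenes under other names were not counted, so other genes of the 40 may be affected as well.

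Other genes of the pathway, and the related lists that follow, were likewise chosen with earlier results of these libraries known. Their counts and adjusted p-values are therefore no independent support for the values of the 40. Of 125 other pathway genes, 117 rose, 1 fell and 7 did not pass the test, against 37.7% of all tested genes called higher and 35.1% called lower. Their median log2 fold change was 0.82. Of the 50 other small subunit genes 49 rose (median 0.79) and Tsr2 did not pass. Noc4l, a processome protein, averaged 38.5 ± 3.43 CPM in Klk6+ skin and 13.4 ± 1.06 CPM in WT skin (SD, n = 5 each; log2 fold change 1.52 ± 0.09 SE, edgeR adjusted p = 6.94e-07). Imp4 and Wdr46 rose by 1.15 ± 0.08 and 1.61 ± 0.11 on the log2 scale (edgeR adjusted p = 1.03e-06 and 1.10e-06). Of 49 other large subunit genes 47 rose (median 0.96). Lsg1, a GTPase of late maturation, had the smallest p, with 45.1 ± 1.74 CPM in Klk6+ skin and 19.6 ± 1.42 CPM in WT skin (SD, n = 5 each; log2 fold change 1.21 ± 0.07, edgeR adjusted p = 4.76e-07). Rpf2 and Nip7 rose by 1.29 ± 0.08 and 1.40 ± 0.09 (edgeR adjusted p = 5.88e-07 and 6.91e-07). Gltscr2, now named Nop53, was the 1 gene of the 125 that fell, with 139 ± 13.9 CPM in Klk6+ skin and 179 ± 19.0 CPM in WT skin (SD, n = 5 each; log2 fold change -0.37 ± 0.10, edgeR adjusted p = 0.0084). Nsa2 did not pass.

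Of 16 other genes of RNA polymerase I and its factors 13 rose (median 0.55), and Taf1c, Taf1a and Znrd1 did not pass. Cd3eap, a subunit paired with Polr1e, rose by 1.39 ± 0.10 on the log2 scale (edgeR adjusted p = 1.81e-06). Rrn3, the initiation factor that brings the enzyme to the promoter, rose by 0.97 ± 0.08, and Polr1d, the partner of Polr1c, by 0.86 ± 0.07 (edgeR adjusted p = 3.34e-06 and 3.36e-06). Of 10 other snoRNP genes 8 rose (median 0.71), led by Ruvbl2 at 1.21 ± 0.09, Shq1, a dyskerin chaperone, at 1.37 ± 0.11, and Ruvbl1 at 0.86 ± 0.09 (edgeR adjusted p = 1.51e-06, 2.08e-06 and 1.52e-05). Znhit6 and Pih1d1 did not pass. Cytosolic ribosomal protein genes rose in 65 of 79 cases and fell in 0, against 37.7% and 35.1% of all tested genes. Their median was 0.46, which is smaller than that of any group of the 40. Examples were Rpl41 at 1.15 ± 0.10, Rpl34 at 1.05 ± 0.11 and Rpl29 at 0.66 ± 0.08 (edgeR adjusted p = 3.54e-06, 1.36e-05 and 3.95e-05). Ribosomal protein genes have many near-identical processed pseudogenes, which makes their values uncertain.

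**Figure D3:**
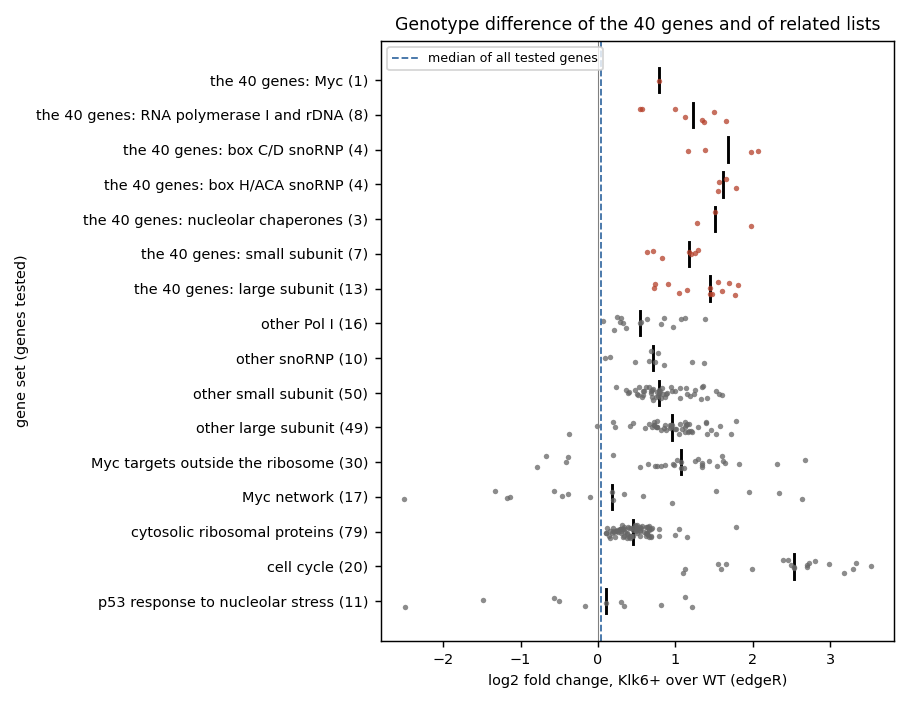
Each point is a gene at its log2 fold change, Klk6+ over WT, with the 40 genes by group in red and other lists in grey. Black bars are medians, and the dashed line is the median of all tested genes, 0.04. The groups of the 40 have medians from 1.18 to 1.69, apart from Myc at 0.79, and the cell cycle list lies furthest right at 2.54.

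A list of the Myc network held relatives, partners and antagonists of Myc, partners of Mlx and other genes tied to Myc. Of its 17 genes, 7 were higher, 7 lower and 3 did not pass. Over all tested genes 37.7% were called higher and 35.1% lower, which is close, so nothing is read from these counts. Mxd1, an antagonist that takes Myc's place on Max and is known from differentiating keratinocytes, averaged 176 ± 47.4 CPM in Klk6+ skin and 28.6 ± 6.44 CPM in WT skin (SD, n = 5 each; log2 fold change 2.64 ± 0.22, edgeR adjusted p = 2.95e-06). Mlx, a Max-like partner, rose by 1.52 ± 0.08, and Mycbp, a Myc-binding protein, by 0.96 ± 0.10 (edgeR adjusted p = 4.64e-07 and 1.24e-05). Mlxipl, the glucose-responsive partner of Mlx also called ChREBP, averaged 4.11 ± 1.21 CPM in Klk6+ skin and 23.2 ± 3.94 CPM in WT skin (SD, n = 5 each; log2 fold change -2.50 ± 0.20, edgeR adjusted p = 2.49e-06). The antagonist Mxd4 and the Mlx partner Mlxip fell by 1.18 ± 0.08 and 1.13 ± 0.10 on the log2 scale (edgeR adjusted p = 1.31e-06 and 3.58e-06). Of the relatives of Myc, Mycl was called lower, at 17.1 ± 6.77 CPM in Klk6+ skin and 44.5 ± 17.9 CPM in WT skin (SD, n = 5 each). Mycn was called higher, at 3.70 ± 3.68 CPM in Klk6+ skin and 0.714 ± 0.562 CPM in WT skin (SD, n = 5 each). In both the groups overlapped.

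Genes known as Myc targets in other pathways rose in 25 of 30 cases and fell in 4, against 37.7% and 35.1% of all tested genes. Their median log2 fold change was 1.07. Nme1, a nucleoside diphosphate kinase, averaged 169 ± 9.73 CPM in Klk6+ skin and 34.6 ± 8.57 CPM in WT skin (SD, n = 5 each; log2 fold change 2.31 ± 0.13, edgeR adjusted p = 4.69e-07). The translation initiation genes Eif2s1 and Eif4a1 rose by 1.54 ± 0.09 and 1.62 ± 0.11 (edgeR adjusted p = 6.94e-07 and 1.15e-06). Paics, of purine synthesis, Hk2, a hexokinase, and Ccnd2, a cyclin, fell by 0.41 ± 0.08, 0.67 ± 0.14 and 0.79 ± 0.17 on the log2 scale (edgeR adjusted p = 0.000832, 0.00181 and 0.00196). The remaining gene that fell was Ldha, and Ppat did not pass. Hk2, Ldha and Ccnd2 are also made outside keratinocytes, and the muscle and fibroblast sums given above moved with genotype. Their part in these values was not tested.

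Free ribosomal proteins can hold back Mdm2 and so raise p53 protein when ribosome assembly fails. The values here are of RNA, and p53 protein was not measured. Of 11 tested genes on a p53 list, 5 rose, 3 fell and 3 did not pass. With 37.7% of all tested genes called higher and 35.1% lower, nothing is read from these counts. Trp53 itself averaged 68.0 ± 6.84 CPM in Klk6+ skin and 38.9 ± 4.01 CPM in WT skin (SD, n = 5 each; log2 fold change 0.81 ± 0.10, edgeR adjusted p = 3.94e-05). Cdkn1a, the p21 inhibitor, and Sesn2 rose by 1.12 ± 0.17 and 1.21 ± 0.20 (edgeR adjusted p = 0.000149 and 0.000275). Ccng1, a p53 target, averaged 131 ± 19.9 CPM in Klk6+ skin and 737 ± 141 CPM in WT skin (SD, n = 5 each; log2 fold change -2.49 ± 0.16, edgeR adjusted p = 9.32e-07). Trp53inp1 and Phlda3 fell by 1.48 ± 0.22 and 0.50 ± 0.14 (edgeR adjusted p = 0.000173 and 0.007). Bbc3, Zmat3 and Mdm2 did not pass.

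Within each genotype the order of the mice was counted over the 40 genes. Among Klk6+ mice, Klk6+ 3 was highest for 20 of the 40 and Klk6+ 5 for 14, against 15.5% and 27.8% of all tested genes, and Klk6+ 1 was lowest for 22, against 24.0%. Among WT mice, WT 2 was highest for 24 and WT 3 for 12, against 24.6% and 19.2%, and WT 4 was lowest for 23 and WT 5 for 12, against 19.2% and 24.5%. Whether the genes vary together from mouse to mouse was not tested. The median coefficient of variation of the 40 genes was 8.73% in Klk6+ skin and 15.1% in WT skin, against 15.5% in Klk6+ skin and 17.0% in WT skin over all tested genes. It was larger in WT skin for 33 of the 40, against 54.4% of all tested genes. Npm1 was an exception, at 12.0% in Klk6+ skin and 5.17% in WT skin.

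The sexes were compared next, in a model with a mean for each sex of each genotype. Over both genotypes together, 0 of the 40 genes differed between males and females in edgeR's test at adjusted p under 0.05, a call made for 0.363% of all genes in the higher and 1.79% in the lower direction. The smallest adjusted p among the 40 was 0.0874, for Rrp9. At an unadjusted p under 0.05, 10 were higher and 0 lower in males, against 8.04% and 9.88% of all genes. By sign alone 35 were higher and 5 lower in males, against 56.2% and 43.8%. DESeq2 called 2, Nop58 and Rrp9, and edgeR called Nhp2 when WT 3 was left out.

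In WT skin all 40 genes had higher fitted levels in males than in females, a sign shared by 57.3% of all tested genes, with 42.6% of the other sign. Of the 40, 3 passed edgeR's test within WT, which called 1.32% of all genes in that direction and 3.81% in the other, where 0 of the 40 lay. At an unadjusted p under 0.05, 21 of the 40 were higher in males, against 10.6% of all genes, and 0 lower, against 10.8%. Nop58 had 31.2, 39.6 and 27.2 CPM in WT males, against 19.1 and 17.7 CPM in WT females, a log2 difference of 0.83 ± 0.17 (SE, edgeR adjusted p = 0.0289). Dkc1 had 21.7, 26.4 and 24.5 CPM in WT males, against 16.5 and 16.4 CPM in WT females (0.56 ± 0.13, edgeR adjusted p = 0.0406). Rrp9 had 14.6, 14.8 and 16.5 CPM in WT males, against 10.9 and 10.9 CPM in WT females (0.49 ± 0.11, edgeR adjusted p = 0.0437). All 3 are snoRNP proteins, and in each the WT males and females did not overlap. Every WT male lay above both WT females for 30 of the 40 genes, against 24.2% of all tested genes, and below both for 0, against 19.2%. The pattern was not particular to the 40. Every WT male lay above both WT females for 66 of the 125 other pathway genes and below both for 5. For the 30 Myc targets in other pathways these counts were 21 and 0. These 3 calls rest on few mice. None was made when WT 1, WT 2, WT 4 or WT 5 was left out, and DESeq2 called 10. This comparison within WT was chosen after the values were seen.

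In Klk6+ skin 0 of the 40 genes differed between the sexes in edgeR's test, which called 0.0336% of all genes higher and 0% lower in males. At an unadjusted p under 0.05 edgeR called 1 of the 40, Tcof1, lower in males, against 2.52% of all genes, and 0 higher, against 1.45%. By sign alone 19 were higher in males and 21 lower, against 49.7% and 50.3% of all genes. Every Klk6+ male lay above both Klk6+ females for 2 of the 40 and below both for 2, against 6.64% and 8.43%. Nop58 had 101, 93.6 and 116 CPM in Klk6+ males, against 96.1 and 108 CPM in Klk6+ females, with the sexes mixed.

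**Figure D4:**
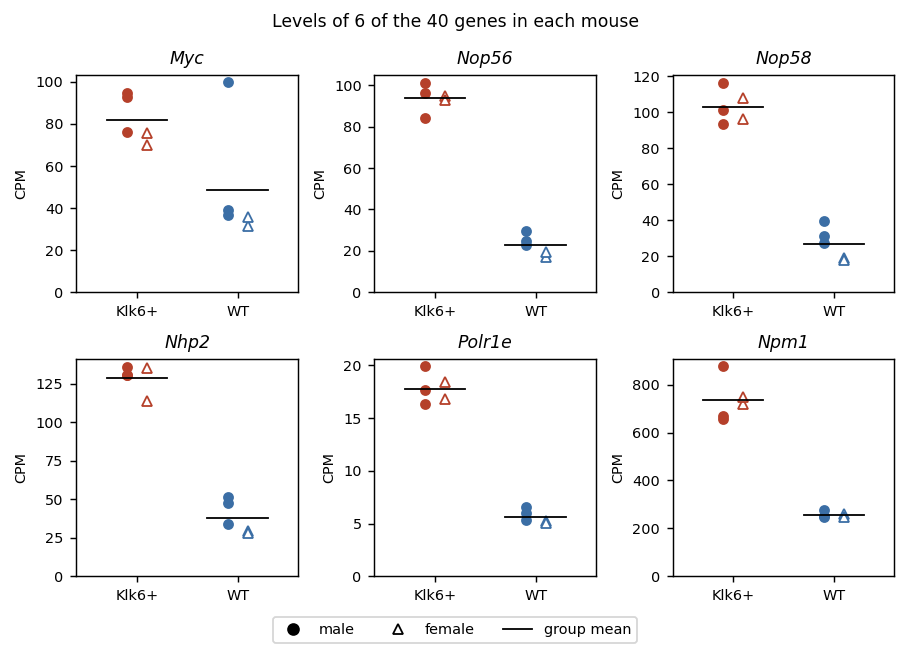
CPM in each mouse for 6 genes, Klk6+ left of WT, with filled circles for males, open triangles for females and a line at the group mean. In Nop58 the 2 WT females lie below the 3 WT males, at 19.1 and 17.7 CPM, and in Klk6+ skin the sexes mix. In Myc the male WT 2 lies at 100.1 CPM.

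The genotype difference was smaller in males than in females for all 40 genes by sign, with medians on the log2 scale of 1.19 in males and 1.53 in females. A difference of that sign was found for 55.0% of all tested genes, and of the other sign for 45.0%. It was also found for 99 of the 125 other pathway genes and 26 of the 30 Myc targets in other pathways, and the rest did not share it. All 7 basal and all 6 suprabasal keratinocyte markers had this sign too. It was found for 10 of 20 cell cycle genes, 5 of 79 cytosolic ribosomal protein genes and 0 of 7 macrophage markers. Under the other settings the sign held for 37 to 40 of the 40. Tested directly as an interaction of genotype and sex, 0 of the 40 and 0 of 14861 genes passed edgeR's test at adjusted p under 0.05, so 0% were called. The smallest adjusted p among the 40 was 0.319, for Nop58, with a log2 difference of -0.81 between males and females. At an unadjusted p under 0.05 edgeR called 14 of the 40 in this direction, against 4.58% of all genes, and 0 in the other, against 4.91%. The interaction is the sex difference in Klk6+ skin minus that in WT skin, with medians over the 40 of -0.00 and 0.32. It therefore largely restates the sex difference in WT skin, from the same mice. The genes share these mice, so counts of genes are not counts of independent cases. DESeq2 called 263 genes and none of the 40. That the sexes respond differently in these genes was therefore not shown at this number of mice.

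**Figure D5:**
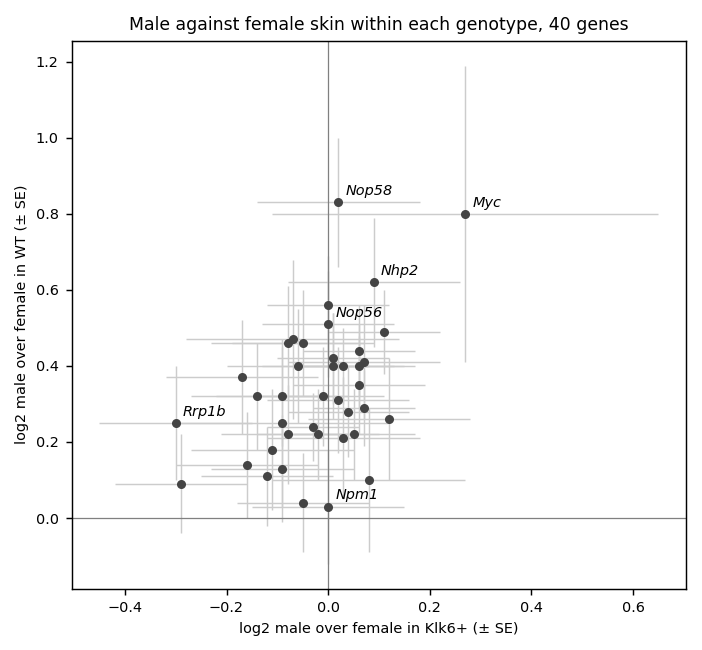
Each point is a gene of the 40, with the log2 difference of males over females in Klk6+ skin across and in WT skin up, and bars for the SE. All points lie above 0 on the WT axis, from 0.03 for Npm1 to 0.83 for Nop58, and they scatter on both sides of 0 on the Klk6+ axis.

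Markers of other cells moved with sex in WT skin as well. Suprabasal keratinocyte markers summed to 12155, 10812 and 8011 CPM in WT males, against 6363 and 4185 CPM in WT females, and all 6 had every male above both females. Basal keratinocyte markers summed to 9626, 8717 and 6360 CPM in WT males, against 5895 and 3566 CPM in WT females, with every male above both females in 4 of 7. Fibroblast markers summed to 40900, 40937 and 22082 CPM in WT males, against 12003 and 12549 CPM in WT females, but gene by gene every male lay above both females in 3 of 7 and below both in 1. Macrophage markers ran the other way in 7 of 7, with 997, 1261 and 1752 CPM in WT males, against 3664 and 4405 CPM in WT females. Sebocyte markers summed to 3507, 5239 and 6630 CPM in WT males, against 2837 and 3379 CPM in WT females. Every male lay above both females in 4 of these 6 and below both in 0. The sums of cell cycle genes did not separate the sexes, with 335, 256 and 277 CPM in WT males, against 317 and 195 CPM in WT females. Gene by gene, every male lay above both females in 3 of 20 and below both in 0. The part of these cell types in the sex difference of the 40 genes was not tested.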

How the data were processed

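Whole skin RNA from 10 mice was sequenced. Per the labels' protocols, poly(A) RNA went into TruSeq mRNA v2 libraries, which do not mark strand, read for 50 cycles from 1 end on an Illumina HiSeq. The submitters' processing notes name TopHat2, SAMtools, HTSeq, Cufflinks 2.2.1 and the builds GRCm38 and mm10. The deposited tables give for each mouse and gene a whole-number count of reads, not normalized, and an FPKM value, both made by the authors. Read counts per library are given with the results.

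Counts of 14861 genes kept by filterByExpr (minimum count 10) were fitted with edgeR 4.0.16 in R 4.3.3 (TMM factors, quasi-likelihood F test, Benjamini-Hochberg over all genes tested), with genotype and sex as terms. Sex and its interaction with genotype came from a model of 4 means. The 40 genes, their grouping and the other lists were chosen with earlier results of these data known. Named genes are Myc, in each group the gene of highest FPKM and those of largest and smallest fold change, and from other lists up to 3 called genes per direction by smallest p. Mycn and Mycl were added as relatives of Myc. FPKM served to compare levels between genes. Replicate mice carry separate animal labels, numbered in accession order within a genotype. Settings varied were the scaling, the filter, the test (DESeq2 1.42.0 and limma 3.58.1), FPKM with a pseudocount of 1 or 0.1, the sex term and the leaving out of mice. The fits were tested on simulated counts. Promoters and snoRNA sequences came from RefSeq (GRCm38.p6) and GENCODE M21 (GRCm38).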

Additional observations from a re-analysis of the deposited data

Results flagged for a closer look

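Each of the 40 genes was examined in both genotypes for a library far from the other 4 of its group (Dixon's test, a gap of more than 0.71 of the group's range). Of 80 groups 5 stood out, and chance alone gives about 4. Myc in WT 2 was 100.1 CPM, against 39.1 CPM in the next WT library. Tcof1 in WT 2 was 35.7 CPM, against 31.1 CPM in the next WT library. Nhp2 in Klk6+ 5 was 114 CPM, below 131 CPM in the next Klk6+ library. Pes1 in Klk6+ 4 was 107 CPM, against 103 CPM in the next Klk6+ library. Nle1 in Klk6+ 3 was 22.1 CPM, against 18.6 CPM in the next Klk6+ library. No difference in the effect of genotype between the sexes passed edgeR's test for these genes.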

How the results depend on the processing

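Across 22 other settings all 880 fold changes of the 40 genes kept their sign, 852 moved by less than the spread between replicates, and 18 settings called all 40 higher. In the other 4 Myc alone was not called, without WT 4, Klk6+ 4, Klk6+ 5, or both Klk6+ 3 and Klk6+ 5, and males alone gave 39 calls. The count of other ribosome biogenesis genes that rose was 111 to 117. All 748 values of the 34 genes given with fold changes from the pathway, Myc, p53 and ribosomal protein lists kept their direction and call. These genes were named for the smallest p in this same contrast, and the settings reuse the same libraries. That they kept their calls was therefore largely fixed in advance. The 40 genes were likewise listed with this contrast known. Among the keratinocyte marker calls, those of Itga6 (higher) and Krt10 (lower) were lost in some settings. Upper-quartile scaling put the median of all genes at -0.06, against 0.04 with TMM, and that of the 40 at 1.25.

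The count of genes that differed by sex, 320 by the main test, depended on the setting. It was 188 with DESeq2's size factors in edgeR, 553 with library size alone, 1295 with DESeq2, 653, 500 and 551 with limma on log2(FPKM + 1), log2(FPKM + 0.1) and log2(FPKM + 1) without a filter, and 5 without both Klk6+ 3 and Klk6+ 5. Leaving out 1 mouse gave 5 to 618. The interaction, 0 by the main test, gave 263 genes with DESeq2, 16, 4 and 33 with the same limma settings, 1 without both Klk6+ 3 and Klk6+ 5, and 0 to 4 when 1 mouse was left out. For the 40 genes the sex test called 2 with DESeq2 and 0 to 1 when 1 mouse was left out. Calls for sex within WT, 3 by the main test, ran from 0 to 4 outside DESeq2, which made 10. The cause of these shifts was not tested. No paired analysis was possible because replicate numbers were given in accession order and carry no pairing. With 2 females per genotype, sex differences are measured on few animals, and intervals between sexes are wide.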
